A study of Mus musculus with 10 samples.

Results

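Mast cell genes and the receptor gene Kit were measured in 5 tumours and in 5 pieces of adjacent tissue of the colon, from mice with colitis-associated cancer caused by azoxymethane (AOM), a mutagen, and dextran sulfate sodium (DSS), an irritant of the gut lining. The members are 10 genes taken by symbol from the 24525 genes of the expression table: Kit and its ligand gene Kitl, the protease genes Cpa3, Cma1, Mcpt1, Mcpt2, Mcpt4 and Tpsb2, the IgE receptor gene Ms4a2 and the histamine enzyme gene Hdc. All 10 were found in the table. The mice were male C57BL/6 (C57BL/6N in the growth protocol), 7 weeks old and of 1 brood. Treated mice received AOM once at 12.5 mg/kg, then 3 cycles of 3 weeks, each made up of 5 days of 2% DSS in the drinking water and 16 days without it, and tissue was sampled 10 weeks after AOM. Both groups therefore share AOM and DSS, and the 3 untreated mice that the labels mention have no library here. Every source label names mouse #1, whereas the series text has matched tumour and normal tissue of several mice, so whether like-numbered samples share a mouse is not settled. P-values thus reflect only the spread among these samples, which may be technical. Libraries are called by group and by the number in their title, such as tumour 1 or adjacent 1.

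Mast cells are tissue-resident immune cells filled with granules of histamine and proteases. Their growth and survival depend on Kit, a receptor tyrosine kinase, and on its ligand, stem cell factor, the product of Kitl. In mice, mucosal mast cells of the gut are marked by the chymases encoded by Mcpt1 and Mcpt2, and connective tissue mast cells by the chymases of Mcpt4 and Cma1, the tryptase of Tpsb2 and the carboxypeptidase of Cpa3. Kit is also made by interstitial cells of Cajal, the pacemaker cells of the gut wall, by secretory cells deep in colonic crypts, by some innate lymphoid cells and by melanocytes, and Hdc is also made by immature myeloid cells and neutrophils.

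The members did not move together between adjacent tissue and tumour. Kit was 2.14-fold lower in tumours by the ratio of group means, while Kitl was 1.85-fold higher and Hdc 15.1-fold higher, and in these 3 genes the groups did not overlap. The size of the Hdc fold leans on tumour 3, which stood far above the other tumours. The 5 granule protease genes Cpa3, Mcpt1, Mcpt2, Mcpt4 and Tpsb2 overlapped between the groups and did not pass the test by group alone; Cpa3, Mcpt4 and Tpsb2 passed when the library number was added to the model as a block. Among the samples of each group these 5 genes varied together, and libraries 1 and 5 held the 2 highest values of all 5 in adjacent tissue and again in tumours. Cma1 passed the threshold narrowly and followed neither pattern.

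Values are FPKM, fragments scaled to transcript length and to the library's total, a level per length that can be compared between genes of a library. Between samples FPKM is relative, as a gene's value also moves with the rest of its library. Fold changes were tested with limma on log2(FPKM + 1) over the 13016 genes whose mean reached 1 FPKM, with an adjusted p under 0.05 as the threshold. The words rose and fell are kept for genes past that threshold. Of the 10 members, 9 were tested, and Ms4a2 lay below the filter. Hdc passed the filter through its tumour values, as its adjacent mean was 0.992 FPKM. Of the 9, 3 rose (Kitl, Hdc and Cma1) and 1 fell (Kit), against 57.2% of all genes tested that rose and 19.3% that fell, or 76.5% called in either direction. The groups did not overlap for 3 of the 9 members, against 60.9% of all genes tested (46.5% with every tumour above every adjacent sample and 14.3% with every tumour below). The median log2 change was 0.76 for the 9 members and 0.35 for all genes tested. With each library's median subtracted, 2 members rose and 1 fell, against 34.5% and 33.3% of all genes, or 67.7% in either direction. In bulk tissue, a change in the number of cells of a type and a change in RNA per cell cannot be told apart.

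**Figure D1:**
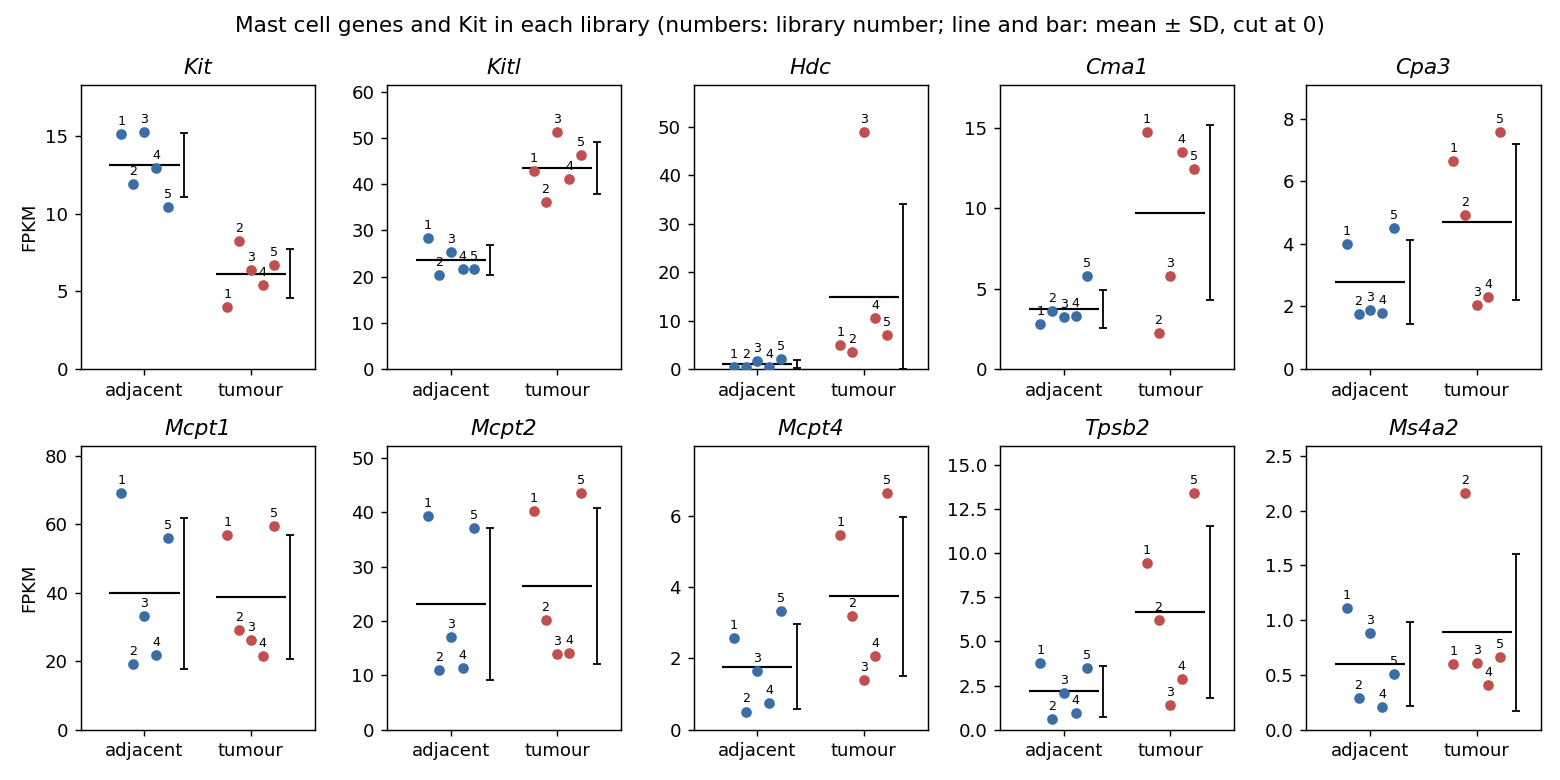
FPKM of each of the 10 genes (vertical axes, each from 0) in the 5 adjacent samples (blue) and the 5 tumours (red), with the library number above each point, a line at the mean and a bar of 1 SD either way, cut at 0. Kit, Kitl and Hdc show no overlap between groups, whereas Mcpt1 and Mcpt2 have about the same spread in both, with libraries 1 and 5 on top.

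The libraries were alike in summed FPKM but not in the number of genes at 1 FPKM. They summed to 462009 to 484712 FPKM. In adjacent samples 11981 to 12631 genes reached 1 FPKM, and in tumours 12940 to 13171, with no overlap. Steps between low values gave a rough depth of 20500000 to 26500000 fragments per library. At the median of these depths 1 fragment on the transcript of Mcpt1 is worth 0.044 FPKM, so the lowest values of Ms4a2 rest on few fragments. The epithelial marker list lay at a mean of 9.03 to 9.41 on the log2(FPKM + 1) scale in adjacent samples and 7.76 to 8.82 in tumours, with all 9 genes above the filter. Of these, 8 fell and 1 rose, against 19.3% and 57.2% of all genes tested. Cdx2, an intestinal transcription factor, and Lgals4, a galectin, were lower by log2 changes of -3.06 and -1.9. The groups overlapped for Cdx2, with tumour 2 at 58.95 FPKM and adjacent 5 at 27.0 FPKM. Krt18, a keratin, rose by 0.36 (0.02 and not past the threshold with medians subtracted). The mast cell proteases were detected throughout: Cpa3, Mcpt1, Mcpt2, Cma1, Mcpt4 and Tpsb2 were above 0.5 FPKM in every library.

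Kitl (chromosome 10, 100015630 to 100100416, GRCm38) encodes stem cell factor, the ligand of Kit. It was at 28.27, 20.43, 25.41, 21.64 and 21.73 FPKM in adjacent samples 1 to 5, and at 42.83, 36.21, 51.25, 41.22 and 46.32 FPKM in tumours 1 to 5. Every tumour lay above every adjacent sample. The mean was 23.5 ± 3.26 FPKM in adjacent tissue and 43.6 ± 5.63 FPKM in tumours (SD, n = 5 per group). The log2 change was 0.86, with an SE of 0.11 (limma adjusted p = 6.13e-05). Kitl varied less within a group than any other member, with a ratio of highest to lowest of 1.38 in adjacent samples and 1.42 in tumours. With medians subtracted the log2 change was 0.53 (adjusted p = 0.00044). Marker lists of cell types known to make stem cell factor were also higher in tumours, where 57.2% of all genes tested rose. All 8 fibroblast genes rose, among them the collagen genes Col1a1 and Col1a2, by 3.0 (SE 0.28) and 2.53 (SE 0.29). All 8 endothelial genes rose (7 with medians subtracted), among them Cdh5 and Esam, adhesion proteins of vessels, by 1.87 (SE 0.18) and 1.37 (SE 0.19). Tek, among the 8, passed the filter through its tumour values, as its adjacent mean was 0.976 FPKM. The lists had means of 2.94 to 4.03 in adjacent samples and 5.44 to 6.12 in tumours for fibroblasts, and of 1.38 to 2.18 and 2.76 to 3.30 for endothelium, on the log2(FPKM + 1) scale. Their part in the Kitl result was not tested.

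Kit (chromosome 5, 75574916 to 75656722) encodes the receptor. It was at 15.13, 11.94, 15.26, 12.93 and 10.42 FPKM in adjacent samples 1 to 5, and at 3.97, 8.24, 6.36, 5.44 and 6.69 FPKM in tumours 1 to 5. Every tumour lay below every adjacent sample, with tumour 2 closest to adjacent tissue and tumour 1 farthest. Means were 13.1 ± 2.08 FPKM in adjacent tissue and 6.14 ± 1.58 FPKM in tumours (SD, 5 samples each). The log2 change of Kit was -1.0 (SE 0.16; limma adjusted p = 0.000242), and of -1.33 with medians subtracted (adjusted p = 7.13e-05). Receptor and ligand thus went in opposite directions whichever tumour is set against whichever adjacent sample. Kitl exceeded Kit by 1.67-fold to 2.09-fold in adjacent samples and by 4.39-fold to 10.8-fold in tumours. This ratio is taken within a library and does not depend on scaling between libraries. Of 4 other receptors of the Kit family, Pdgfra, Pdgfrb and Csf1r rose and Flt3 was below the filter, where 57.2% of all genes tested rose. Pdgfra and Pdgfrb are also in the fibroblast list. Pdgfra, a receptor of fibroblasts, rose by 1.97 on the log2 scale (SE 0.26), and Pdgfrb, a receptor of pericytes and fibroblasts, by 1.75 (SE 0.12).

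**Figure D2:**
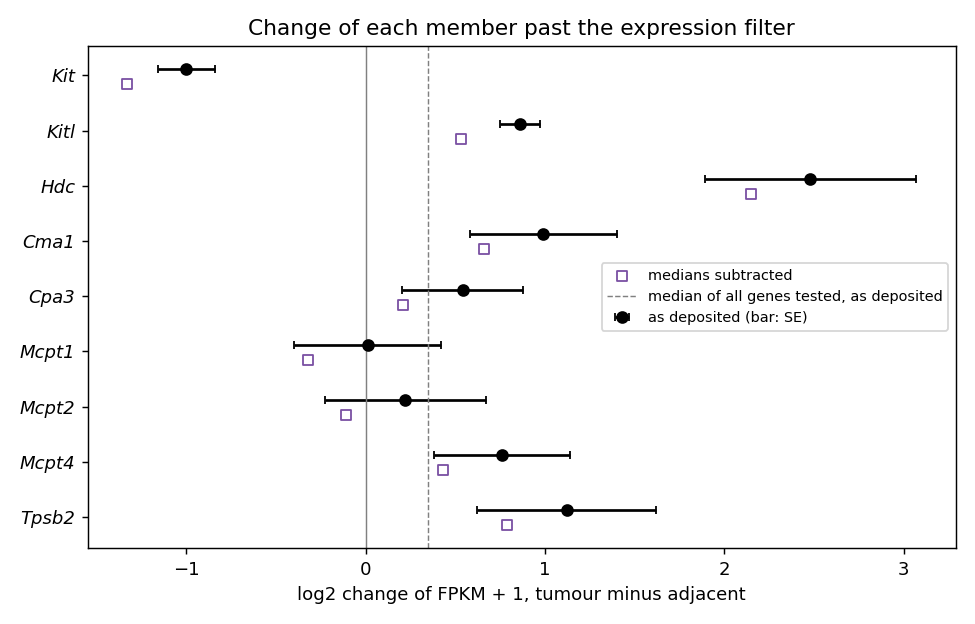
Log2 change of FPKM + 1, tumour minus adjacent (horizontal axis), of the 9 members past the filter, with the SE as bar for the values as deposited (black) and without error bar after subtraction of each library's median (open squares). Kit lies at -1.0 and Kitl at 0.86, on either side of the median of all genes tested at 0.35 (dashed line), and Mcpt1 lies at 0.01.

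Kit was 2.31 to 8.12 times as high as Cpa3 in adjacent samples and 0.597 to 3.10 times as high in tumours, and its pattern was not that of the mast cell proteases. Across libraries, after each group's mean was subtracted, the Pearson r of Kit was -0.14 with Cpa3, -0.12 with Mcpt1 and -0.03 with Tpsb2 (n = 10 libraries, given as a description). The lists of other cell types known to make Kit stood as follows. Of 10 genes of deep crypt secretory and goblet cells, 9 fell and none rose, against 19.3% and 57.2% of all genes tested. The list means were 9.55 to 9.69 in adjacent samples and 6.26 to 7.91 in tumours on the log2(FPKM + 1) scale. Clca1 and Zg16, secreted proteins of goblet cells, fell by 4.95 (SE 0.58) and 4.77 (SE 0.57). Reg4, the marker of the deep crypt cells, did not pass. Of 8 genes of interstitial cells of Cajal, 5 were tested, of which 4 fell and 1 rose, against 19.3% and 57.2% of all genes. The other 3 were under 1 FPKM in every library. The list means were at most 2.65 in adjacent samples and 1.57 to 2.12 in tumours. Thbs4, a matrix protein, fell by 3.60 (SE 0.40), from an adjacent mean of 118 FPKM, far above the 13.1 FPKM of Kit. Gpr20, an orphan receptor, fell by 1.35 (SE 0.17). Prkcq, a protein kinase C also made by T cells, rose by 0.85 (SE 0.19) but lay under the filter without tumour 2. In the smooth muscle list, from the layer where interstitial cells lie, 5 of 8 genes rose and none fell (3 rose with medians subtracted), shares of rises near those of all genes tested (57.2% and 34.5%). Synpo2, among the 5, passed the filter through its tumour values, as its adjacent mean was 0.756 FPKM. Acta2 and Actg2, smooth muscle actins, rose by 1.74 and 1.51. Myh11, Des and Cnn1 did not pass, at log2 changes of 0.64, 0.33 and 0.44 (limma adjusted p = 0.122, 0.444 and 0.316). Of 9 innate lymphoid genes, 2 were tested, of which 1 rose and 1 fell, against 57.2% and 19.3% of all genes tested. Il7r, the interleukin 7 receptor, rose by 1.1 on the log2 scale (SE 0.22). It passed the filter through its tumour values, as its adjacent mean was 0.768 FPKM. Of 5 melanocyte genes, Tyrp1 and Mlana were listed at 0 in every library, none was past the filter, and Pmel and Tyr, which serve melanin synthesis, were at most 1.34 and 0.98 FPKM. The part of these cell types in the Kit result was not tested.

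Of 22 genes of Kit signalling, 17 rose, 1 fell and 4 did not pass, with a median log2 change of 0.56, against 57.2% of all genes that rose and a median of 0.35. After medians were subtracted, 10 of them rose and 3 fell, with a median of 0.23, against 34.5% that rose and a median of 0.02. Fyn, a Src family kinase, rose by 1.35 (SE 0.18), from 2.58 ± 0.752 to 8.08 ± 1.70 FPKM, and Plcg2, a phospholipase C, by 1.26 (SE 0.14). Pik3r1, the regulatory subunit of phosphoinositide 3-kinase, fell by 0.45 (SE 0.07; limma adjusted p = 0.000175). Most of these genes are used by many receptors and cell types.

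Ms4a2 (chromosome 19, 11615523 to 11623719) encodes the beta chain of the high-affinity IgE receptor. It was at 1.11, 0.29, 0.88, 0.21 and 0.51 FPKM in adjacent samples 1 to 5, and at 0.60, 2.16, 0.61, 0.41 and 0.66 FPKM in tumours 1 to 5. The groups overlapped, and tumour 2 alone lay above 2 FPKM. In the fit with no filter over 19733 genes, of which 59.3% were called (44.5% higher and 14.9% lower), the log2 change was 0.21 (SE 0.23; limma adjusted p = 0.478). Of 15 genes of IgE receptor signalling, 6 rose, 3 fell and 6 did not pass, with a median of 0.24. Among all genes tested with the filter, 57.2% rose and 19.3% fell, with a median of 0.35. Fcer1g, the gamma chain, which many myeloid cells share, rose by 1.61 (SE 0.25), and Lcp2, an adaptor protein, by 1.27 (SE 0.18). Prkcd, a protein kinase C, fell by 1.12 (SE 0.10), and Syk, the kinase that binds the receptor, fell by 0.66 (SE 0.20). Fcer1a, the alpha chain that binds IgE, did not pass, at 1.01 ± 0.544 and 1.29 ± 0.499 FPKM (n = 5 per group; log2 change 0.20, limma adjusted p = 0.406).

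Hdc (chromosome 2, 126593667 to 126619299) encodes histidine decarboxylase, which makes histamine. It was at 0.38, 0.48, 1.63, 0.34 and 2.13 FPKM in adjacent samples 1 to 5, and at 4.87, 3.49, 48.91, 10.46 and 6.98 FPKM in tumours 1 to 5. Every tumour lay above every adjacent sample, and tumour 3 stood far above the others. The mean was 0.992 ± 0.831 FPKM in adjacent tissue and 14.9 ± 19.2 FPKM in tumours (SD, n = 5 per group). Hdc rose by 2.48 on the log2 scale (SE 0.59; limma adjusted p = 0.003). Without tumour 3 the log2 change was 1.91 (adjusted p = 0.000848), and with medians subtracted 2.15 (adjusted p = 0.00727). Hdc did not follow the mast cell proteases. In tumour 3, where Hdc was highest, Cpa3, Mcpt2, Mcpt4 and Tpsb2 were at their lowest tumour values, so that Hdc was 23.9 times as high as Cpa3 there, 4.55 times in tumour 4 and 0.709 to 0.922 times in the other 3 tumours. In adjacent samples Hdc was 0.0955 to 0.867 times as high as Cpa3.

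Most neutrophil genes tested, but not Ly6g, moved in the same direction as Hdc. Of 12 neutrophil genes, 10 were tested, of which 8 rose and 1 fell, against 57.2% and 19.3% of all genes tested. Mmp8, among the 8, passed the filter through its tumour values, as its adjacent mean was 0.204 FPKM. With medians subtracted 7 rose and 1 fell, against 34.5% and 33.3%. List means were 1.36 to 3.08 in adjacent samples and 2.74 to 3.92 in tumours on the log2(FPKM + 1) scale. S100a9 and S100a8, calcium-binding proteins of neutrophils, rose by 3.41 (SE 0.70) and 2.90 (SE 0.62), while Ly6g fell by 2.64 (SE 0.50). S100a9 was at 3.33, 7.60, 10.09, 4.38 and 65.75 FPKM in adjacent samples 1 to 5 and at 75.88, 49.09, 161.07, 156.47 and 204.82 FPKM in tumours 1 to 5. Tumour 2 was the lowest tumour and adjacent 5 the highest adjacent sample for both Hdc and S100a9, but tumour 3, the highest for Hdc, was not the highest for S100a9. The neutrophils' part in the Hdc result was not tested. Of the other 8 genes of the histamine pathway, only Aoc1 and Hrh1 passed the filter, and both fell, where 19.3% of all genes tested fell. Aoc1, a diamine oxidase that degrades histamine, fell from 108 ± 20.3 to 34.1 ± 16.5 FPKM (log2 change -1.75, SE 0.30; limma adjusted p = 0.00038), and Hrh1, a histamine receptor, from 4.68 ± 0.809 to 1.03 ± 0.523 FPKM (log2 change -1.50, SE 0.17).

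The chymase genes lie together on chromosome 14, with Cma1 at 55941451 to 55944675, Mcpt1 at 56017971 to 56020384, Mcpt2 at 56042041 to 56044642 and Mcpt4 at 56059629 to 56062313. Cpa3 lies on chromosome 3 (20215620 to 20242181) and Tpsb2 on chromosome 17 (25366305 to 25369098). The chymase transcripts are related in sequence, so the extent to which reads could be shared between them bears on their values. Mcpt1 and Mcpt2 transcripts were 82.2% identical over 961 aligned bases, Mcpt1 and Mcpt4 85.6% over 976, and Mcpt1 and Cma1 66.3% over 941. No window of 50 bases was identical between any pair of the 4, and none between Tpsb2 and the tryptase gene Tpsab1.

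The sequences just before the start sites of 4 of these protease genes are shown because Cpa3, Mcpt1 and Mcpt4 varied together across libraries while Cma1, in the same cluster as Mcpt1 and Mcpt4, did not. RefSeq promoters (GRCm38.p6) matched 8 of the 10 members. Each sequence is the 250 bases before the start, 5′ to 3′ on the strand of the gene, with GATAA or its reverse complement in capitals, the core of the motif bound by GATA factors.
Mcpt1, chr14:56017714-56017963, plus strand: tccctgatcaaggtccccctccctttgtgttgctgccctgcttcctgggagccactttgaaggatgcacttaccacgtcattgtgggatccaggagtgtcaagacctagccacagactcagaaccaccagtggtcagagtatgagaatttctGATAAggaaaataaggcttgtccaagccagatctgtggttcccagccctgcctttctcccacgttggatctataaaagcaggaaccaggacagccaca
Mcpt4, chr14:56062311-56062560, minus strand: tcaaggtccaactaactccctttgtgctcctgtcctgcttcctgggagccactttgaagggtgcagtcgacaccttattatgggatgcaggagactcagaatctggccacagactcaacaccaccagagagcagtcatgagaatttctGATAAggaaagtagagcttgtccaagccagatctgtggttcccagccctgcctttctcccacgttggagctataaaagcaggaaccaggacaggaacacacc
Cpa3, chr3:20242182-20242431, minus strand: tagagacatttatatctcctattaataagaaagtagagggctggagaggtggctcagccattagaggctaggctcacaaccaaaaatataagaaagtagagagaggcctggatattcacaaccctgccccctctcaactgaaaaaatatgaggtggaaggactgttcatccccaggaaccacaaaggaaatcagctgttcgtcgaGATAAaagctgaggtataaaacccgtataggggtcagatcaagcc
Cma1, chr14:55944676-55944925, minus strand: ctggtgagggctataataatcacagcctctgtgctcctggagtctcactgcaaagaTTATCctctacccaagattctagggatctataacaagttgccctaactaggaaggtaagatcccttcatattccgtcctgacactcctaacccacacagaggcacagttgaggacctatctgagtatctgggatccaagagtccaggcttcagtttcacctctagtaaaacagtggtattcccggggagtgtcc
GATAA was found on either strand in 5 of the 8 matched promoters (these 4 and Ms4a2) and in 22.6% of all 32851 promoters of this length. The promoters of Kit, Kitl and Hdc held no match. The 2 E-box forms searched, CACGTG and CATGTG, were in none of the 8, against 6.0% and 12.3% of all promoters. The promoters of Mcpt1 and Mcpt4 were 86.4% identical over 242 aligned bases, against 65.5% over 206 between Mcpt1 and Cma1. A match is a description of the letters, not of a bound site.

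Mcpt1 was the most abundant member in 6 of 10 libraries and did not pass the test. It was at 69.11, 19.04, 33.10, 21.71 and 56.11 FPKM in adjacent samples 1 to 5, and at 56.98, 29.21, 26.32, 21.38 and 59.60 FPKM in tumours 1 to 5. Libraries 1 and 5 stood above the others in both groups, and the range of the tumours lay within that of the adjacent samples. Means were 39.8 ± 22.0 FPKM and 38.7 ± 18.1 FPKM (SD, n = 5 per group), and the log2 change was 0.01 (SE 0.41; limma adjusted p = 0.979), whose sign turned with scaling (-0.32 with medians subtracted). Mcpt2, the other mucosal chymase, was at 39.33, 10.93, 16.99, 11.41 and 37.11 FPKM in adjacent samples 1 to 5, and at 40.23, 20.23, 14.01, 14.04 and 43.58 FPKM in tumours 1 to 5. It had libraries 1 and 5 on top again. The log2 change was 0.22 (SE 0.45; limma adjusted p = 0.666) and -0.11 with medians subtracted. With an SE above 0.4 for both genes, a change of that size in either direction was not detectable.

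Tpsb2, the tryptase, was at 3.76, 0.59, 2.09, 0.94 and 3.52 FPKM in adjacent samples 1 to 5, and at 9.45, 6.19, 1.41, 2.87 and 13.41 FPKM in tumours 1 to 5. Tumours 1, 2 and 5 lay above every adjacent sample and tumours 3 and 4 within their range. Means were 2.18 ± 1.45 and 6.67 ± 4.89 FPKM (n = 5 per group), and tumours differed by 1.12 on the log2 scale (SE 0.50; limma adjusted p = 0.0632). It passed without adjacent 1, tumour 3 or tumour 4 (log2 changes of 1.30, 1.47 and 1.30; limma adjusted p = 0.0497, 0.0142 and 0.0482). Mcpt4, a chymase of connective tissue mast cells, was at 2.57, 0.51, 1.64, 0.76 and 3.33 FPKM in adjacent samples 1 to 5, and at 5.46, 3.18, 1.39, 2.07 and 6.65 FPKM in tumours 1 to 5. Tumours 1 and 5 lay above every adjacent sample. The log2 change was 0.76 (SE 0.38; limma adjusted p = 0.0914), and it passed without adjacent 5 or tumour 3 (0.95 and 0.97; limma adjusted p = 0.0451 and 0.0375). Cpa3, a carboxypeptidase of mast cell granules, was at 3.98, 1.75, 1.88, 1.79 and 4.51 FPKM in adjacent samples 1 to 5, and at 6.65, 4.92, 2.05, 2.30 and 7.57 FPKM in tumours 1 to 5. It was higher in the tumour than in the adjacent sample of the same number for 5 of 5 numbers, but the groups overlapped (log2 change 0.54, SE 0.34; limma adjusted p = 0.168).

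Cma1, a chymase, was at 2.80, 3.63, 3.22, 3.32 and 5.80 FPKM in adjacent samples 1 to 5, and at 14.75, 2.23, 5.77, 13.53 and 12.45 FPKM in tumours 1 to 5. Tumours 1, 4 and 5 lay above every adjacent sample, tumour 3 just below adjacent 5, and tumour 2 below all. Means were 3.75 ± 1.18 and 9.75 ± 5.45 FPKM (n = 5 per group), and the log2 change was 0.99 (SE 0.41; limma adjusted p = 0.0469). The call did not hold with medians subtracted (log2 change 0.66; adjusted p = 0.169), with quantile normalization (0.54; adjusted p = 0.283), with no filter (adjusted p = 0.0598) and with a pseudocount of 0.1 (adjusted p = 0.0543). Nor did it hold when adjacent 1, 2, 3 or 4 or tumour 1, 4 or 5 was left out (limma adjusted p of 0.0767 to 0.108), while without tumour 2 the log2 change was 1.37 (adjusted p = 0.000853). Across libraries Cma1 went against Kit, with an r of -0.78 after group means were subtracted, and had an r of 0.21 to 0.34 with the 5 other proteases (n = 10 libraries, as a description).

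**Figure D3:**
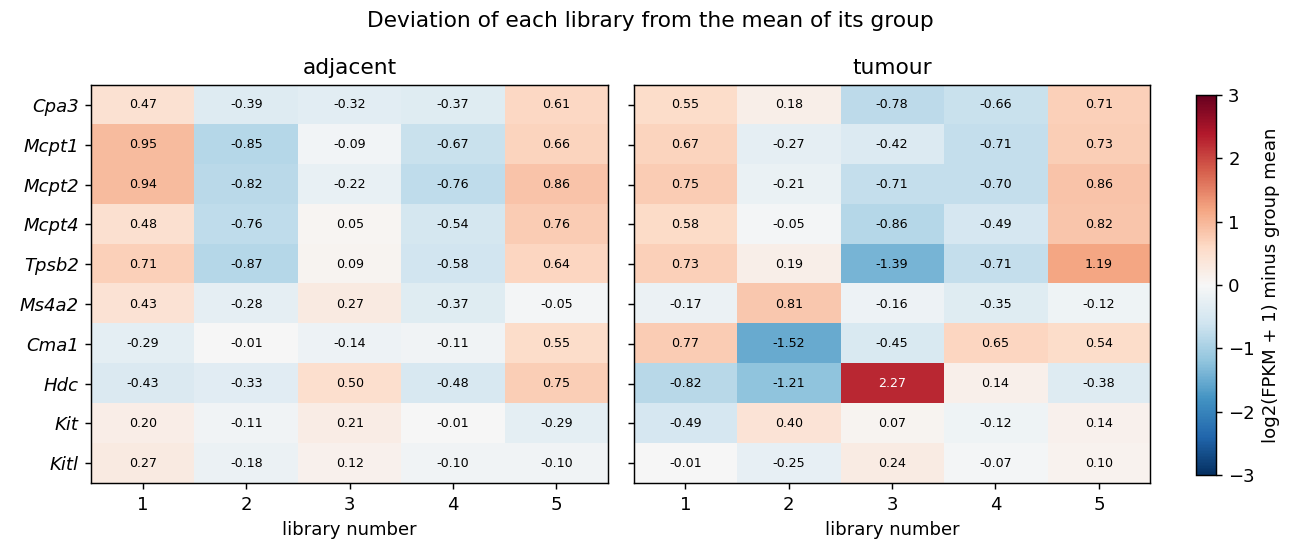
Deviation of each library's log2(FPKM + 1) from the mean of its group, for the 10 genes (rows) and library numbers 1 to 5 (columns), in adjacent samples (left) and tumours (right). Cpa3, Mcpt1, Mcpt2, Mcpt4 and Tpsb2 are above their mean in libraries 1 and 5 of both groups, whereas the highest deviation of Hdc is in tumour 3 and the lowest of Cma1 in tumour 2.

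The 5 proteases other than Cma1 varied together among the samples of a group. After each group's mean was subtracted, r was 0.99 between Mcpt1 and Mcpt2, 0.97 between Mcpt4 and Tpsb2, and at least 0.88 between any pair of the 5 (n = 10 libraries, which also share their depth and number). For these 5 genes libraries 1 and 5 held the 2 highest values in both groups, although whether like-numbered samples share an animal is not settled by the labels. The other genes tested, out of 13016, were ranked by the same measure, without members and clone names. Members could be closer, as Tpsb2, Mcpt2 and Mcpt4 were to Cpa3 (r = 0.95, 0.94 and 0.94). Outside the members, Fcer1a was among the 3 genes most like Cpa3 (r = 0.91), with H13, a signal peptide peptidase (0.93), and Tcf25 (0.91). The highest r picked from so many genes is high by selection, so these are a description. The genes most like Kit were Ybx1, Rai2 and Chic1 (r = 0.96, 0.94 and 0.94), those most like Kitl were Terf1, Ppid and Naa16 (0.99, 0.98 and 0.97), and those most like Hdc were Letm2, St8sia6 and Trim24 (0.95, 0.93 and 0.93). Those most like Cma1 were Lrsam1, Dhrs1 and Miat, each at 0.98. Mcpt1 and Mcpt2 shared H13 and Nckipsd among their nearest genes, with Phtf2 for Mcpt1 and Rbbp9 for Mcpt2. Mcpt4 and Tpsb2 shared H13 and Lipt1, with D17Wsu92e for Mcpt4 and Trnp1 for Tpsb2, all at 0.92 to 0.96.

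The mix of proteases differed between the groups where the total did not separate them. The 6 protease genes summed to 121.55, 36.45, 58.92, 39.93 and 110.38 FPKM in adjacent samples 1 to 5, and to 133.52, 65.96, 50.95, 56.19 and 143.26 FPKM in tumours 1 to 5, which overlap. Mcpt1 and Mcpt2 together made up 89.2%, 82.2%, 85.0%, 82.9% and 84.5% of that sum in adjacent samples 1 to 5, and 72.8%, 75.0%, 79.2%, 63.0% and 72.0% in tumours 1 to 5. Every tumour had a lower mucosal share than every adjacent sample, with means of 84.8 ± 2.73% and 72.4 ± 5.92% (SD, n = 5 per group). These shares are taken within a library and do not depend on scaling. No test was made of them, as they are a score over the chosen genes. Their full separation depends on Cma1 being in the sum. With Cma1 left out, the share of tumour 3 lies just above that of adjacent 5, so the groups overlap. Tpsb2 made up 1.62% to 3.55% of the sum in adjacent samples and 2.77% to 9.38% in tumours, and Cma1 2.30% to 9.96% and 3.38% to 24.1%.

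**Figure D4:**
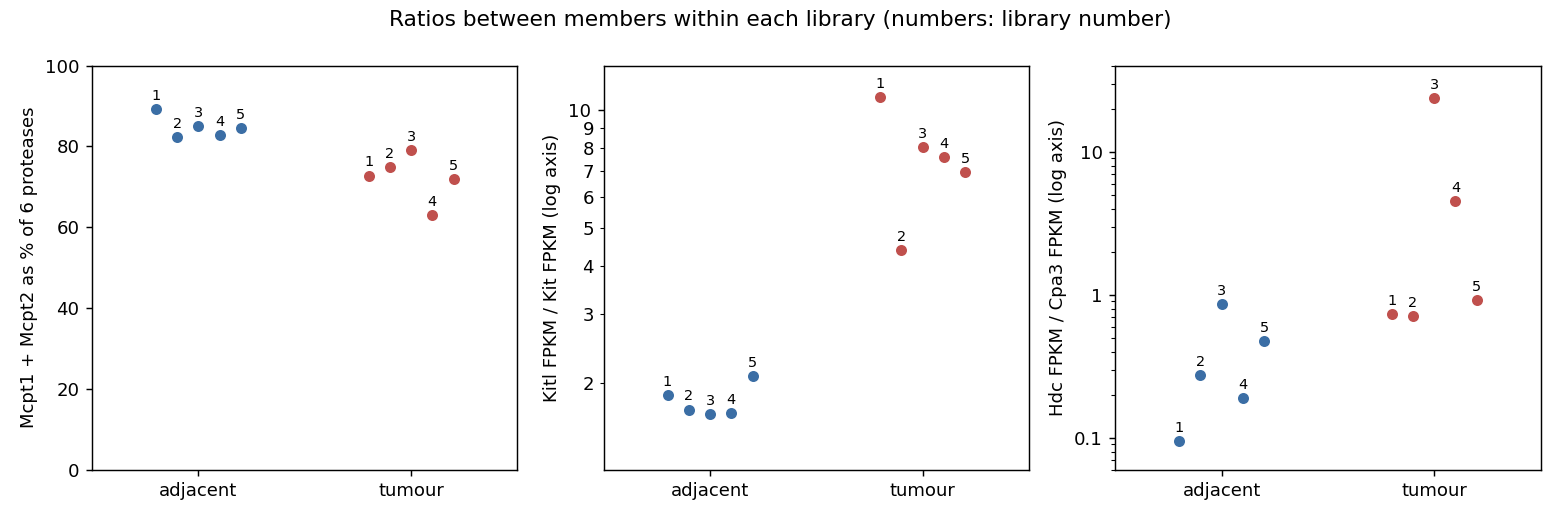
Ratios between members within each library, with the library number above each point: the share of Mcpt1 and Mcpt2 in the sum of 6 proteases (left, from 0 to 100%), Kitl over Kit (middle, log axis) and Hdc over Cpa3 (right, log axis). The mucosal share, with Cma1 in the sum, and the ratio of Kitl to Kit separate tumours from adjacent samples. Hdc over Cpa3 overlaps, with tumour 3 highest at 23.9.

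Other genes of the mast cell programme were mixed. Of 25 in a fixed list, 14 were tested, of which 6 rose and 5 fell, with a median log2 change of 0.23. Gata2, among the 6, passed the filter through its tumour values, as its adjacent mean was 0.83 FPKM. Among all genes tested 57.2% rose and 19.3% fell, with a median of 0.35. Il1rl1, the receptor of interleukin 33, rose from 8.22 ± 5.06 to 64.1 ± 26.1 FPKM (log2 change 2.91, SE 0.40; limma adjusted p = 9.71e-05), and Srgn, the core protein of granule proteoglycans in many blood cells, by 1.74 (SE 0.25). Tpsg1, a membrane-anchored tryptase, fell from 37.8 ± 3.71 to 6.73 ± 4.36 FPKM (log2 change -2.52, SE 0.34), and Tph1, the serotonin enzyme that enterochromaffin cells also make, fell by 2.29 (SE 0.17). Il1rl1, Srgn and Tph1 are made by other cells too. Tpsg1 was at 31.84 to 40.62 FPKM in adjacent samples, against 1.75 to 4.51 FPKM for Cpa3. Libraries 1 and 5 were not its highest in either group. Which cells made Tpsg1 was not tested. In the basophil list 2 of 7 genes were tested, and Hgf, a growth factor also made by stromal cells, rose by 1.80 (SE 0.20). Mcpt8, the basophil protease, was at most 0.34 FPKM and Prss34 at most 0.15 FPKM in any library.

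Of 20 genes for signals known to draw or sustain mast cells, 12 were tested, of which 7 rose and 1 fell, a share of rises close to the 57.2% of all genes tested. The median log2 change was 1.12, against 0.35 for all genes; with medians subtracted 6 rose and 1 fell. Besides Il1rl1, Ccl2, a chemokine for monocytes and mast cell precursors, rose from 1.03 ± 0.629 to 10.9 ± 6.72 FPKM (log2 change 2.45, SE 0.33), while Cx3cl1, fractalkine, fell by 1.4 on the log2 scale (SE 0.24). Il3 and Il9, cytokines that expand mast cells, were listed at 0 in every library.

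**Figure D5:**
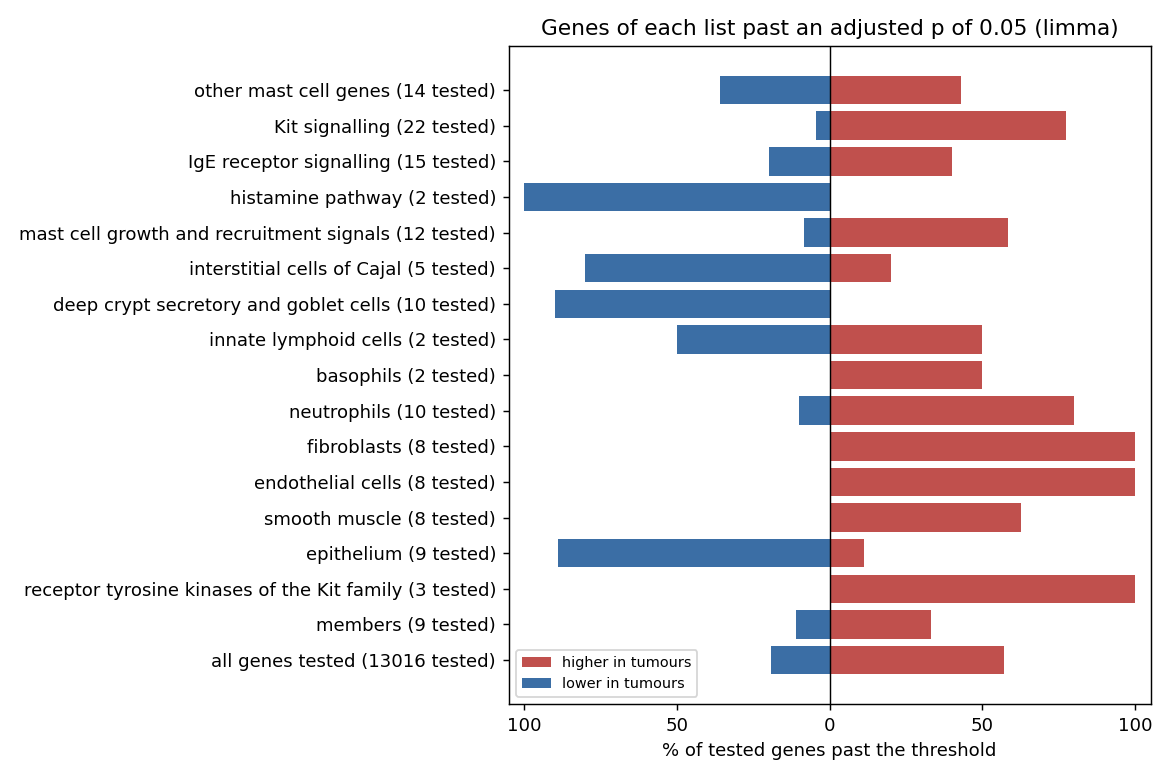
Share of the tested genes of each list that were higher (red, right) or lower (blue, left) in tumours at an adjusted p under 0.05, with the number tested beside each name. The members, with 3 of 9 higher and 1 of 9 lower, stand beside 57.2% and 19.3% of all 13016 genes tested, and the deep crypt secretory and goblet cell list lies almost wholly to the left.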

How the data were processed

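RNA was sequenced from 5 tumours and 5 adjacent samples after oligo-dT selection and TruSeq RNA v2 library preparation on a HiSeq, per the labels' protocols. The authors deposited FPKM per gene for each library. Per the submitters' processing notes the tools included DESeq2 1.14.1 and edgeR 3.16.5, besides Salmon 0.8.2, RSEM 1.2.15, Cufflinks 2.2.1 and TopHat2 2.1.0, with mm10 as the build; which tool gave these FPKM values is not stated there. Since FPKM is relative to the library's total, a gene's value also moves with the rest. Of the table, 1 line of text was left out, and every pair of libraries differed in at least 17741 genes.

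Groups come from the sample type label. limma 3.58.1 (R 4.3.3) modelled log2(FPKM + 1) by group alone (trend and robust options on) for genes averaging 1 FPKM or more, with two-sided tests and Benjamini-Hochberg adjustment over all genes tested. Changes of low genes come out too small on this scale. The fit was tested on simulated data. Depth was estimated from low FPKM values of genes with 1 transcript of 300 to 1000 bases (70.6% to 78.5% of values within 0.2 of whole fragments, at most 57.5% with lengths shuffled).

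Members and the 16 other lists were chosen with earlier results of these data known. Named genes are all members and up to 2 largest rises and 2 largest falls past the threshold in each list (or its 2 most abundant genes). The 3 genes most like each member are also named, with members left out. Clone names are left out throughout. Flt3, Csf1r, Reg4, Tyrp1, Mlana, Mcpt8, Prss34, Il3 and Il9 were named after their values were seen. So were Mmp8, Tek, Synpo2, Gata2, Myh11, Des and Cnn1. A gene that the rule names is not reported here. Alternatives were other scalings, pseudocounts and filters, no trend, a block by library number, and leaving out each library.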

Additional observations from a re-analysis of the deposited data

Results flagged for a closer look

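Of the 26 sets of 5 values checked (10 genes and 3 ratios in each group), 3 held a library far from the others, where chance flags about 1 in 20. Hdc was at 48.91 FPKM in tumour 3, against 3.49 to 10.46 FPKM in the other 4 tumours. Ms4a2 was at 2.16 FPKM in tumour 2, against 0.41 to 0.66 FPKM in the other 4. Cma1 was at 5.80 FPKM in adjacent 5, against 2.80 to 3.63 FPKM in the other 4 adjacent samples.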

How the results depend on the processing

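Kit, Kitl and Hdc kept their direction and their call in all 19 alternatives run, with log2 changes of -0.71 to -1.37, 0.53 to 0.93 and 1.36 to 3.42. The count of members called was 4 in the main fit. It was 3 with medians subtracted (against 67.7% of all genes) and with quantile normalization (66.8%). It was also 3 with no filter (59.3%) and with a pseudocount of 0.1. Cma1 did not pass in any of these. With a block by library number (replicate block) 7 were called, 6 of them higher, against 77.3% and 57.9% of all genes. Cpa3, Mcpt4 and Tpsb2 then passed at log2 changes of 0.54, 0.76 and 1.12 (limma adjusted p = 0.0192, 0.0186 and 0.025). With the block and medians subtracted together, an alternative added after the data were seen, these 3 did not pass. There 3 members were called, against 66.4% of all genes. The series text speaks of matched tissue, but every source label names 1 mouse. Like-numbered deviations correlated at 0.02, 0.32, 0.02, 0.16 and 0.42 for numbers 1 to 5, all positive but not all above 0.1, and tumours 1, 3 and 4 correlated best with another number, so whether the numbers pair the samples is not settled and the block is an alternative. Leaving out a library gave 3 to 6 members called, 2 to 5 of them higher and 1 lower, and 9386 to 10192 genes called in all, 7051 to 7583 of them higher and 2321 to 2609 lower. Over all genes, 7442 were higher and 2509 lower; this was 4486 and 4329 with medians subtracted, 4759 and 3934 with quantile normalization, and 4382 and 4265 with the block and medians subtracted. Directions turned for members that passed no test: Mcpt1 was at -0.32, -0.11 and -0.32 in these 3 settings and between -0.20 and 0.25 without a library, Mcpt2 at -0.11, -0.001 and -0.11, and Ms4a2, with no filter, at -0.29, -0.03 and -0.29. Without a library the difference in mucosal share, tumour minus adjacent, lay between -14.07 and -10.04 percentage points, the log2 ratio of Kit to Kitl lay between -2.20 and -1.87 and that of Kit to Cpa3 between -2.10 and -1.50. Low values of Ms4a2 and of genes under 1 FPKM are limited by depth.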
